A study of Mus musculus with 69 samples.

Results

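The genes described here were 40 imprinted genes of the mouse, Peg10 among them, taken as a list of symbols and matched to 40 of the 55964 gene identifiers in the count tables of the series. They were followed across RNA-seq of the pituitary, hypothalamus and ovary of female C57BL/6J mice that carried a Zeb1 allele resistant to the microRNAs of the miR-200 family. Zeb1 encodes a zinc finger repressor, and in the knock-in allele (200) the matches to miR-200a/b in its 3′ untranslated region (UTR) had been altered in the germline, so every cell of the animal carried it. The question was how far the loss of this single microRNA-target relation changed gene expression along the hypothalamic-pituitary-ovarian axis, and here how it changed imprinted genes.

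Groups were defined by tissue, cohort and Zeb1 genotype. WT animals carried no knock-in allele, 200H animals were heterozygous and 200M animals were homozygous. The young cohort was made of virgin females of 8 to 12 weeks, and the older cohort of females aged 28 to 36 weeks and killed after a breeding trial, all in proestrus at collection. The knock-in lines came from a pair of embryonic stem cell clones (6B6 and 3C5), were backcrossed to C57BL/6J, and are not told apart by the sample labels. There were 69 libraries in 18 groups, with 4 libraries per group except 3 for the young WT pituitary, the older 200M pituitary and the older 200M hypothalamus. The study calls them biological replicates. Library totals ran from 3321845 to 14655095 counts, with 3321845 to 5143128 in the young hypothalamus, the shallowest tissue, and 4527753 to 12957678 in the older pituitary. The cohorts also differed in library chemistry (rRNA-depleted and stranded in the young, poly(A)-selected and unstranded in the older), so levels were not compared between cohorts, and age, breeding history and chemistry cannot be told apart.

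In an imprinted gene, a mark laid down in the egg or the sperm leads to expression from only 1 parental copy in some or all tissues. Most imprinted genes lie in clusters that share a differentially methylated control region, and many act on fetal and placental growth, on the brain and on endocrine tissues such as the pituitary. Each listed gene was assigned 1 expressed copy, the paternal for 22 genes and the maternal for 18, whatever the tissue. The data did not separate the parental copies, so a change in level could not be assigned to either of them. In bulk tissue, fewer cells of a type and less RNA per cell cannot be told apart.

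The miR-200 family consists of 5 mature microRNAs in a pair of seed groups, shown because the altered Zeb1 sites matched these seeds. The sequences are from RefSeq (GRCm38.p6), written 5′ to 3′, with the seed (bases 2 to 8) in capitals. The first 3 share the seed AAUACUG and the last 2 the seed AACACUG.
mmu-miR-200b-3p (chr4:156055685-156055706, minus strand): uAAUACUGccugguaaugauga
mmu-miR-200c-3p (chr6:124718324-124718346, minus strand): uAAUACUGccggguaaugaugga
mmu-miR-429-3p (chr4:156053916-156053937, minus strand): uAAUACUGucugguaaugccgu
mmu-miR-200a-3p (chr4:156054911-156054932, minus strand): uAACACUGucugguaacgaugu
mmu-miR-141-3p (chr6:124717917-124717938, minus strand): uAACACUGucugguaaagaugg

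Of the 40 genes, 34 had an annotated coding transcript with a 3′ UTR, and their longest 3′ UTR was searched on the transcript strand for a match to seed bases 2 to 8, or to bases 2 to 7 followed by an A. A match that is coding in another transcript of the same gene was left out of the counts. A match for the seed AAUACUG was present in 9 of these 34 genes, against 18.2% of the 20804 genes searched, and a match for AACACUG in 12 of the 34, against 21.7%. The rule dropped 1 listed gene, Peg10 for AAUACUG, and with such matches kept the count for this seed was 10 of 34, against 18.2% of all genes. The median 3′ UTR was 1528 bases long in the listed genes and 967 bases over all genes searched. Peg10 held a counted match for AACACUG and the uncounted one for AAUACUG, which is shown second. A match for AACACUG alone was present in Igf2, Usp29, Mest, Asb4 and Peg3, and for AAUACUG alone in Ndn, Zim1 and Zrsr1. Ube3a, Ppp1r9a, Impact, Nap1l5, Igf2r and Mkrn3 held matches for both seeds. Grb10, Nnat, Snrpn and Sgce held neither. The windows below are on GRCm38 and read along the transcript, with the letters that pair with the seed in capitals (a final A included where present). They are examples from some of the genes whose levels are described closely, and those of Impact and Nap1l5 are not shown. A match is a run of letters and no proof of a site.
Peg10 (chr6:4759976-4760005, plus strand): tacagggaaatCAGTGTTAggagtgaattg
Peg10, coding in another transcript (chr6:4756018-4756047, plus strand): agtatctatatCAGTATTtgtattaccatc
Igf2 (chr7:142651141-142651170, minus strand): ggacacccaccCAGTGTTAatatgcctcgt
Usp29 (chr7:6966123-6966152, plus strand): tataacattcaCAGTGTTAatatactatat
Mest (chr6:30747868-30747897, plus strand): tggcgtaaataCAGTGTTctgagtatgagt
Ube3a (chr7:59310801-59310830, plus strand): tggtattttaaCAGTATTAaattttataat
Ppp1r9a (chr6:5160923-5160952, plus strand): tttcttaagtcCAGTATTAgggattccagt

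Zeb1 protein binds E-box sequences, of which CAGGTA and CAGGTG are the best known forms. Promoter windows of 300 bases (RefSeq, GRCm38.p6) were at hand for 32 of the 40 genes (48 windows, since a gene can have several starts) and not for Cdkn1c, H19, Impact, Peg10, Peg13, Rtl1, Sgce and Trappc9. Either word, on either strand, was present in at least 1 window of 11 of the 32 genes (34.4%), against 32.5% of 27025 genes. In Snrpn it stood in 1 of 4 windows, at a start 309958 bases upstream of the gene model used for the counts, and that window is not shown. Windows from Mest (at a start 9959 bases inside the gene model), Nap1l5 and Igf2 are shown as examples among genes that changed, with the word in capitals (CACCTG is CAGGTG on the other strand).
Mest (chr6:30733403-30733432, plus strand): ggcaacccaaatCACCTGccccaggggctg
Nap1l5 (chr6:58907317-58907346, minus strand): ggggtgtataaaCAGGTAtggaaaaataca
Igf2 (chr7:142666767-142666796, minus strand): tggtggccctgcagttcactggtCAGGTAc

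Levels are given as CPM, counts-per-million scaled by the trimmed mean of M values (TMM) over the libraries of a tissue and cohort. Differences are log2 values with their standard error (SE), from edgeR's quasi-likelihood test fitted for 1 pair of genotypes in 1 tissue and cohort, and a gene was called where its p, adjusted over all genes tested by Benjamini-Hochberg, was under 0.05. The words rose and fell are kept for called genes. The targeted gene followed its labels. Zeb1 in the young pituitary was 96.6 ± 1.68 CPM in WT (SD, n = 3), 130 ± 3.60 in 200H and 137 ± 4.12 in 200M (n = 4 each), and it rose in 200M by 0.52 (edgeR adjusted p = 2.39e-05) and in 200H by 0.44 (edgeR adjusted p = 0.000895). In the older pituitary it rose by 0.55 in 200M and by 0.33 in 200H (edgeR adjusted p = 0.000833 and 0.0139), and it was not called in hypothalamus or ovary. Prl, which encodes prolactin and marks the lactotropes of the pituitary, had a mean of 142300 CPM in the young WT pituitary and 194900 CPM in the older one, and it fell in both mutants.

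Peg10, a gene derived from a retrotransposon that encodes Gag-like and Pol-like proteins and is needed for the placenta, rose in both mutants of the young pituitary and in 200M of the older one. In the young pituitary it was at 349, 372 and 296 CPM in the WT libraries, at 606, 749, 675 and 777 CPM in 200H, and at 1124, 981, 1111 and 1106 CPM in 200M. The 3 genotypes did not overlap, with 200H between WT and 200M. It rose 3.22-fold in 200M (log2 1.69, SE 0.08, edgeR adjusted p = 2.86e-09) and 2.09-fold in 200H (log2 1.06, SE 0.10, edgeR adjusted p = 2.04e-05), and 200M was 1.54-fold above 200H (edgeR adjusted p = 0.0158). Among older pituitary libraries WT stood at 104, 147, 122 and 79.2 CPM, 200H at 134, 118, 170 and 232 CPM, and 200M at 465, 400 and 384 CPM. All 200M libraries were above every other library, whereas 200H and WT overlapped. Here the rise in 200M was log2 1.88 (SE 0.16, edgeR adjusted p = 9.99e-06), the 200H value was log2 0.54 (SE 0.21, edgeR adjusted p = 0.126), and 200M was 2.53-fold above 200H (edgeR adjusted p = 0.0241). The call between 200M and 200H in the young pituitary was lost without 200M replicate 1 or 3 (edgeR adjusted p = 0.0574 and 0.118), and that in the older pituitary without 200H replicate 1 or 3 or any 200M library (edgeR adjusted p from 0.0506 to 0.146).

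Sgce, which encodes the membrane protein epsilon-sarcoglycan, is transcribed away from Peg10 from a start 99 bases from it (Sgce at chr6:4674350-4747207 on the minus strand, Peg10 at chr6:4747306-4760517 on the plus strand, GRCm38), and both are expressed from the paternal copy. It stayed between 48.1 and 58.9 CPM in all young pituitary libraries and between 35.3 and 50.7 CPM in all older ones. The genotypes overlapped in the older pituitary, while in the young one the 200H libraries lay just above WT, and the fitted values were log2 0.09 (SE 0.07) and -0.06 (SE 0.10) in young and older 200M (edgeR adjusted p = 0.42 and 0.693). In 200H they were log2 0.15 (SE 0.08) in the young and -0.15 (SE 0.11) in the older pituitary (edgeR adjusted p = 0.25 and 0.392). Both other listed genes of the same cluster on chromosome 6 were called. Ppp1r9a, which encodes the actin-binding scaffold neurabin, rose in young 200M and 200H and older 200M (log2 0.40, 0.33 and 0.53), and Asb4, which encodes an ankyrin and SOCS box protein, fell in young 200M and 200H and older 200H (log2 -0.48, -0.74 and -0.60).

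**Figure D1:**
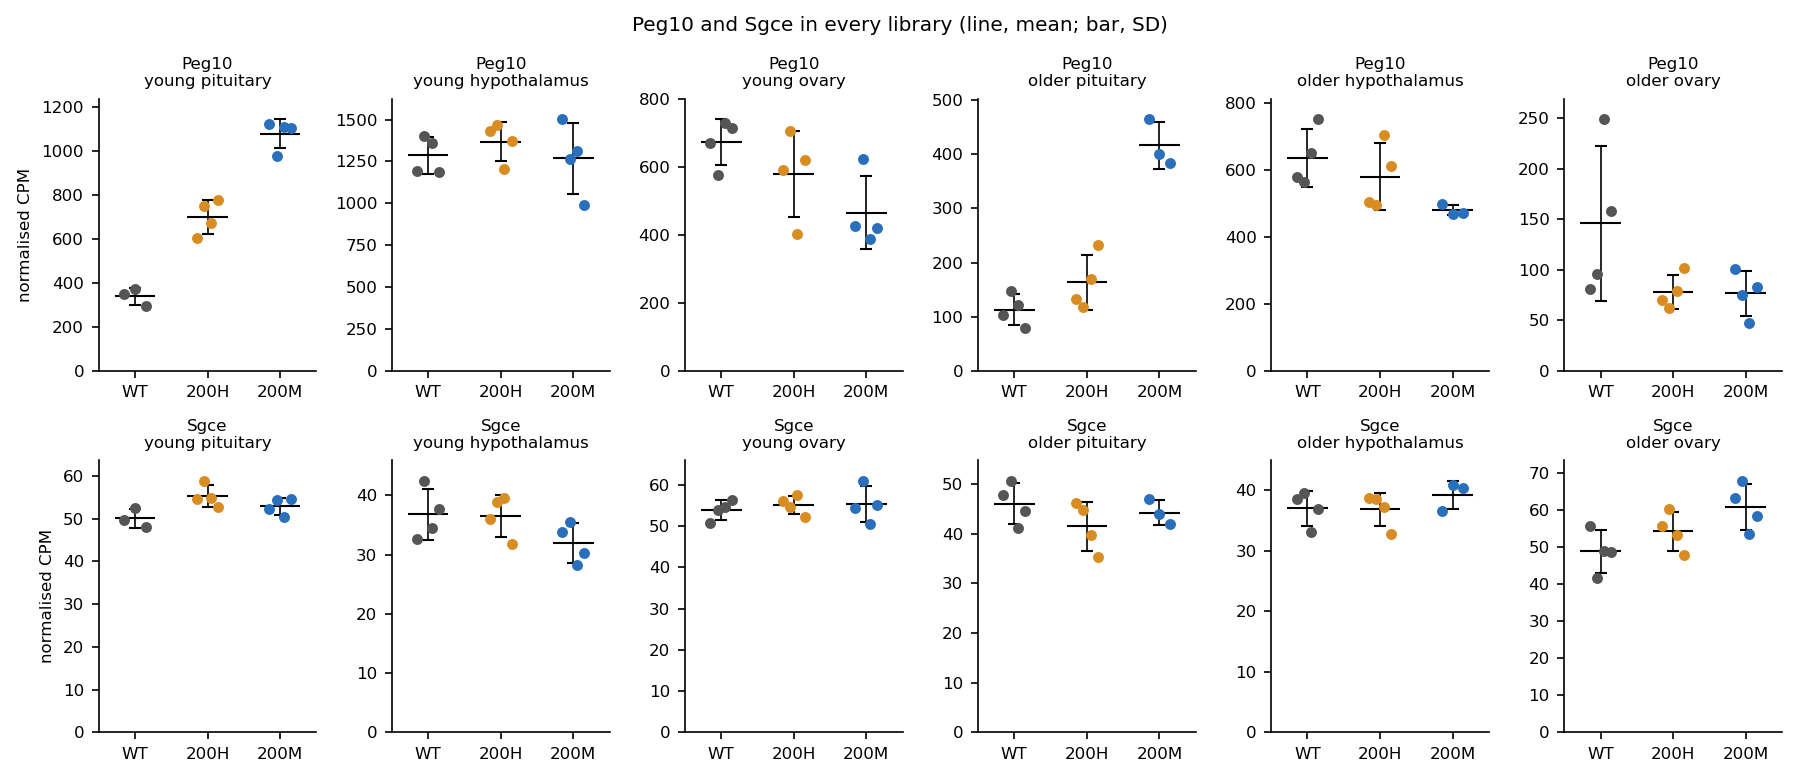
Levels of Peg10 (upper panels) and Sgce (lower panels) in every library, in normalised CPM on axes that start at 0, by genotype (WT grey, 200H orange, 200M blue) in the 3 tissues of each cohort; lines are means and bars SD. In young pituitary Peg10 stands at 296 to 372 CPM in WT and 981 to 1124 in 200M with no overlap, while Sgce stays between 48.1 and 58.9 CPM.

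In the young pituitary 33 of the 40 genes passed the filter on low counts (filterByExpr). In 200M, 19 of the 33 were called, 14 higher and 5 lower, where 21.5% of all genes tested were called (11.5% higher and 10.0% lower). In young 200H, 16 of 33 were called, 13 higher and 3 lower, against 12.3% of all genes (6.56% higher and 5.72% lower). In the older pituitary 34 genes were tested. In older 200M, 16 were called, 14 higher and 2 lower, against 21.4% of all genes (11.7% higher and 9.77% lower), and in older 200H 11 were called, 8 higher and 3 lower, against 12.2% (7.09% higher and 5.14% lower). The median absolute log2 difference of the listed genes was 0.36 in young 200M, 0.33 in young 200H, 0.40 in older 200M and 0.30 in older 200H, beside 0.21, 0.19, 0.22 and 0.18 over all genes tested. The median signed difference was 0.12, 0.24, 0.26 and 0.09, beside values between -0.01 and 0.01 over all genes. The 200H and 200M comparisons share their WT libraries, so their calls are given side by side and are not independent. The list was chosen with earlier results of these data known, so its shares beside those of all genes are a description and carry no test.

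Over the 4 pituitary comparisons 21 of the 34 genes tested at least once were called at least once, beside 28.2% of all genes, and 8 of the 33 tested each time were called in all 4, beside 6.32% (3.81% higher and 2.51% lower each time). Of these 8, Igf2, Nnat, Grb10, Impact, Snrpn, Ube3a and Nap1l5 rose each time and Mest fell each time. Between 200M and 200H, 1 of 33 genes was called in the young pituitary (0.0383% of all genes) and 1 of 34 in the older pituitary (0.121%), and in both cases it was Peg10. The count column of 1 young WT pituitary library carries a number found in no sample title of its group, so it is called unnumbered. Without WT replicate 1, or without the unnumbered WT library, the count in young 200H went from 16 to 10. Gnas, Nap1l5, Ndn, Ppp1r9a, Rian and Ube3a were then no longer called (edgeR adjusted p from 0.056 to 0.134). In the same comparison Gnas, Rian and Ube3a were not called without 200H replicate 1, Nap1l5 without 200H replicate 2 or 4, and Rian without WT replicate 2 or 200H replicate 4 (edgeR adjusted p from 0.0502 to 0.0836).

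**Figure D2:**
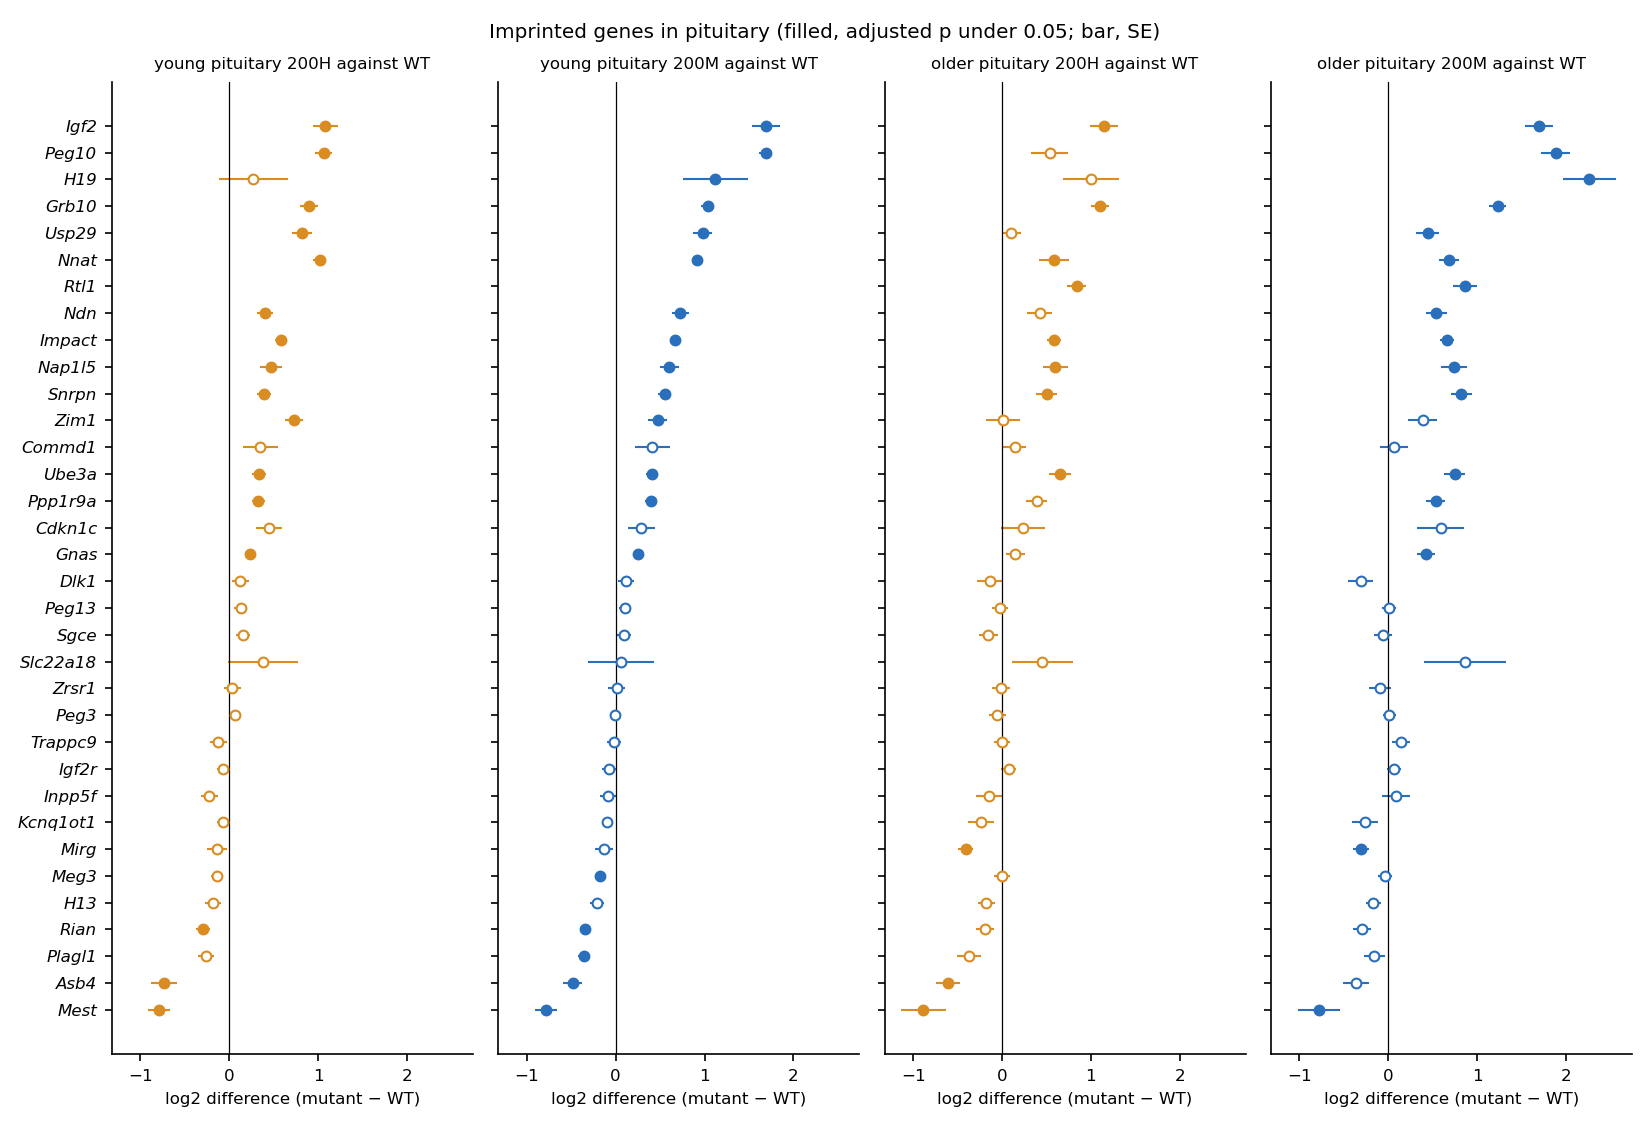
Log2 differences between mutant and WT pituitary (horizontal axis) for each imprinted gene tested (vertical axis, ordered by the value in young 200M), with 1 panel for each cohort and mutant; bars are SE and filled points have an adjusted p under 0.05. Peg10 and Igf2 lie farthest to the right in young 200M, both at log2 1.69, and Mest farthest to the left at -0.78.

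The growth factor gene Igf2 and its neighbour H19 rose together in 200M. Igf2 encodes insulin-like growth factor 2, and H19 is a long noncoding RNA made from the maternal copy of the same cluster. In the young pituitary Igf2 was at 11, 9.85 and 12.1 CPM in WT, at 19.6, 22.7, 26.6 and 23.8 CPM in 200H, and at 34.5, 29.8, 31.6 and 46.5 CPM in 200M. Older pituitaries had it at 5.98, 5.21, 7.08 and 6.54 CPM in WT, at 14.1, 13.7, 15.7 and 11.3 CPM in 200H, and at 17.2, 21.6 and 20.3 CPM in 200M. In both cohorts the genotypes did not overlap and 200H lay in between. The rise was 3.24-fold in young 200M (log2 1.69, SE 0.16, edgeR adjusted p = 2.28e-06) and 3.23-fold in older 200M (log2 1.69, SE 0.16, edgeR adjusted p = 1.77e-05). In 200H it was 2.12-fold and 2.22-fold (edgeR adjusted p = 0.000204 and 0.000521), and 200M did not pass the test against 200H (log2 0.61 and 0.54, edgeR adjusted p = 0.235 and 0.168). H19 was sparse, at 1.23 to 1.46 CPM in young WT and 0.695 to 1.21 CPM in older WT, against 1.98 to 4.70 and 3.11 to 4.86 CPM in 200M. It rose by log2 1.12 in young 200M (SE 0.36, edgeR adjusted p = 0.0397) and 2.26 in older 200M (SE 0.30, edgeR adjusted p = 0.000263). The young call was lost without any of 5 single libraries (WT replicates 1, 2 and the unnumbered one, 200M replicates 1 and 4), with edgeR adjusted p up to 0.12.

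Grb10, an adaptor protein that dampens insulin and insulin-like growth factor receptor signalling, rose in all 4 comparisons. Young pituitaries had it at 72.9, 66.5 and 65.9 CPM in WT, at 138, 136, 106 and 126 CPM in 200H, and at 133, 140, 153 and 128 CPM in 200M. Older WT pituitaries were at 62.1, 64.2, 66.9 and 60.1 CPM, 200H at 131, 117, 135 and 159 CPM, and 200M at 170, 135 and 140 CPM. Every mutant library was above every WT library in both cohorts, while both mutants overlapped each other. The rise was 2.05-fold and 1.86-fold in young 200M and 200H (edgeR adjusted p = 3.56e-07 and 6.59e-05) and 2.34-fold and 2.15-fold in the older mutants (edgeR adjusted p = 4.19e-06 and 1.39e-05). Igf2r, the receptor that clears insulin-like growth factor 2, had differences between -0.07 and 0.07 in these 4 comparisons, none of them called. Cdkn1c, a cyclin-dependent kinase inhibitor, was not called either (log2 0.29, 0.45, 0.59 and 0.24 in young 200M, young 200H, older 200M and older 200H). Plagl1, a zinc finger gene that regulates other imprinted genes, fell in young 200M from 2657 to 2814 CPM in WT to 1894 to 2277 CPM (log2 -0.36, edgeR adjusted p = 0.000679) and was not called in the other 3 comparisons (log2 -0.26, -0.16 and -0.37).

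Among genes of the Prader-Willi and Angelman region on chromosome 7, Snrpn, Ndn and Ube3a were tested in the pituitary and rose. Snrpn encodes a core protein of small nuclear ribonucleoproteins. It was at 95.6, 85.1 and 97.7 CPM in young WT, at 115, 129, 121 and 118 CPM in young 200H, and at 137, 122, 147 and 131 CPM in young 200M. Its older levels were 34.9, 39.3, 30.3 and 28.7 CPM in WT, 56.2, 43.3, 44.0 and 45.6 CPM in 200H, and 53.9, 61.1 and 61.9 CPM in 200M. Neither mutant overlapped WT in either cohort. The rise was 1.46-fold and 1.31-fold in young 200M and 200H (edgeR adjusted p = 0.000117 and 0.00536) and 1.76-fold and 1.42-fold in the older mutants (edgeR adjusted p = 0.000438 and 0.0173), the last being 0.0511 without WT replicate 3.

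Ube3a encodes a ubiquitin ligase that neurons express from the maternal copy. Its levels in the young pituitary were 421, 489 and 422 CPM in WT, 586, 582, 491 and 556 CPM in 200H, and 600, 596, 582 and 552 CPM in 200M. The older libraries held it at 72.8, 51.3, 59.4 and 63.8 CPM in WT, 92.5, 105, 79.5 and 109 CPM in 200H, and 108, 111 and 91.3 CPM in 200M. The lowest young 200H library stood close above the highest WT library, and otherwise the mutants were clear of WT. The rise was 1.33-fold and 1.26-fold in young 200M and 200H (edgeR adjusted p = 0.000301 and 0.0166) and 1.68-fold and 1.57-fold in the older mutants (edgeR adjusted p = 0.000994 and 0.00471). In the older libraries, which carry no strand, reads where Ube3a and the antisense transcript Snhg14 overlap cannot be told apart. The older counts of Ube3a may miss or include such reads, which was not tested. Ndn, which encodes the MAGE family protein necdin, rose in young 200M, young 200H and older 200M (log2 0.73, 0.40 and 0.54) and not in older 200H (log2 0.42, edgeR adjusted p = 0.0667). Magel2, a gene of the same family, was at 92.4 to 162 CPM in the hypothalamus and under 0.65 CPM in every pituitary library, and Mkrn3 and Peg12 were likewise under 0.65 CPM in the pituitary.

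Nnat encodes neuronatin, a small membrane proteolipid of the endoplasmic reticulum found in neurons and endocrine cells, and it was the listed gene with the highest pituitary level per length. In young WT it stood at 748 CPM per kb of exon and in older WT at 849 CPM per kb, beside 50.8 and 16.9 CPM per kb for Peg10. Its young pituitary libraries were at 1359, 1431 and 1314 CPM in WT, at 2940, 2425, 2797 and 2830 CPM in 200H, and at 2680, 2738, 2416 and 2415 CPM in 200M. Older WT libraries were at 1269, 1427, 1733 and 1781 CPM, 200H at 1949, 3214, 2226 and 1915 CPM, and 200M at 2613, 2331 and 2540 CPM. No mutant library overlapped WT in either cohort. The rise was 1.89-fold and 2.02-fold in young 200M and 200H (edgeR adjusted p = 6.5e-08 and 2.19e-06) and 1.61-fold and 1.5-fold in the older mutants (edgeR adjusted p = 0.00122 and 0.0376). The call in older 200H was lost without any of WT replicates 1, 2 and 3 or 200H replicates 2 and 3 (edgeR adjusted p from 0.0545 to 0.104).

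Impact encodes a regulator of the translational stress kinase GCN2. Its young WT libraries were at 288, 273 and 258 CPM, those of 200H at 384, 421, 397 and 420 CPM, and those of 200M at 427, 428, 450 and 420 CPM. Its older libraries were at 185, 204, 193 and 181 CPM in WT, at 286, 296, 269 and 289 CPM in 200H, and at 290, 321 and 294 CPM in 200M. Its spread within groups was small and WT did not overlap either mutant. Impact lies on the same chromosome as Zeb1 (chromosome 18), and the part of linkage to the knock-in allele was not tested. The rise was 1.60-fold and 1.5-fold in young 200M and 200H (edgeR adjusted p = 1.24e-06 and 0.000112) and 1.58-fold and 1.5-fold in the older mutants (edgeR adjusted p = 0.000116 and 0.000414). Nap1l5, an intronless gene of the nucleosome assembly protein family, rose by log2 0.61, 0.47, 0.74 and 0.60 in young 200M, young 200H, older 200M and older 200H. Its WT libraries spanned 184 to 278 CPM in the young and 148 to 250 CPM in the older pituitary, and its 200M libraries 328 to 363 and 304 to 353 CPM. Gnas, which encodes the stimulatory G protein alpha subunit, had small rises in young 200M, young 200H and older 200M (log2 0.25, 0.24 and 0.42) from WT levels of 4802 to 5570 and 440 to 550 CPM, and the older call was lost without 200M replicate 2 or 3 (edgeR adjusted p = 0.0576 and 0.0531). Exons of Gnas overlap Nespas on the other strand. The older libraries carry no strand, so their Gnas counts may miss or include such reads, which was not tested.

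**Figure D3:**
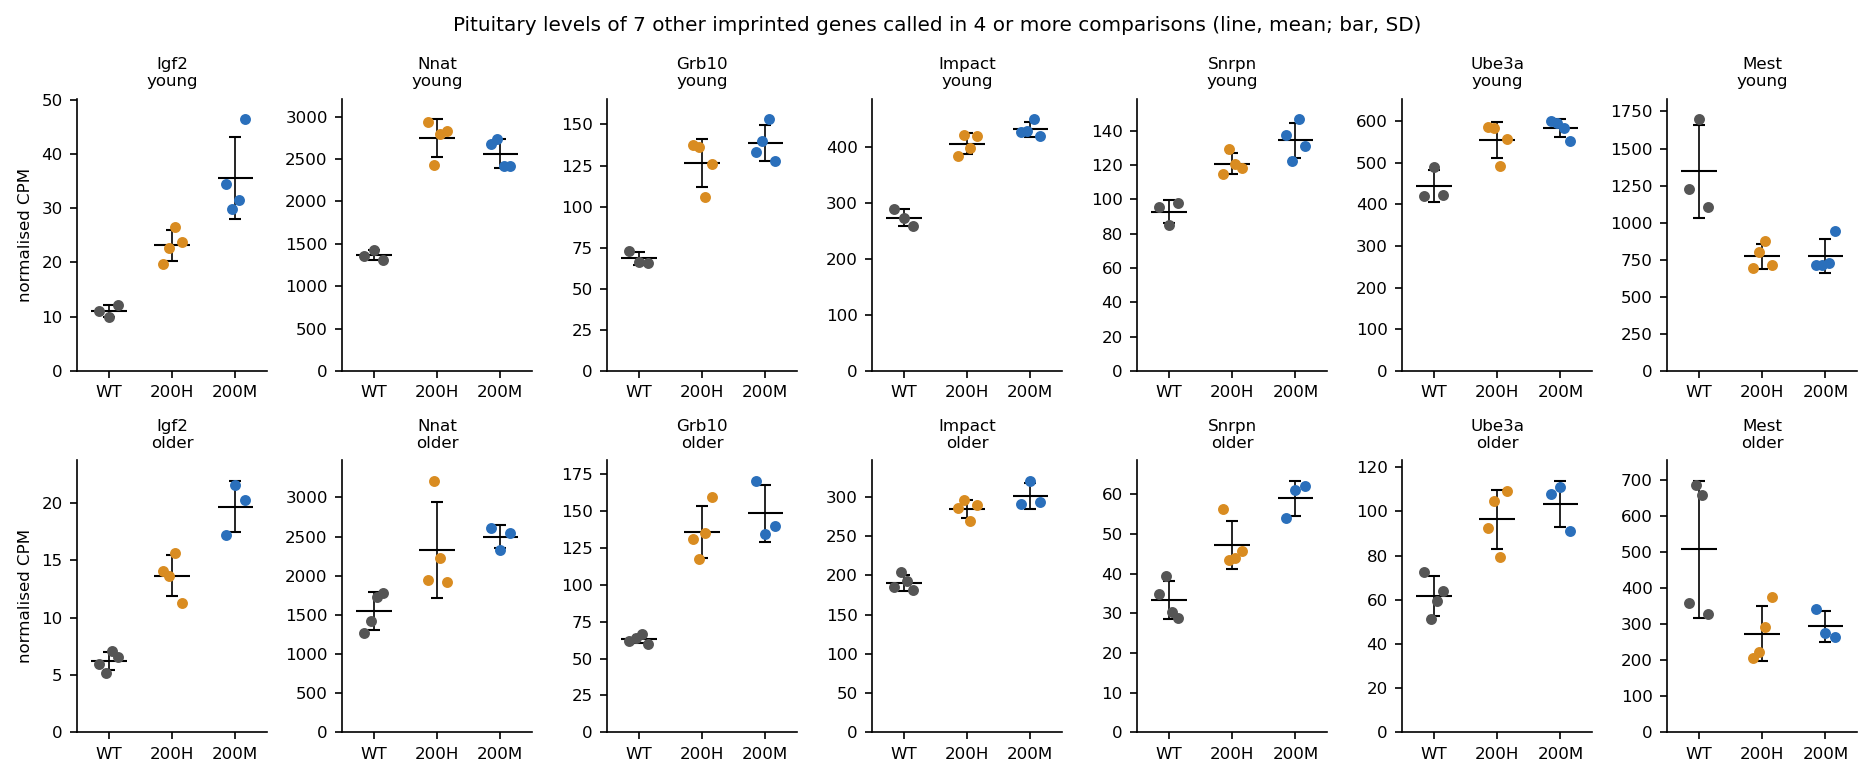
Pituitary levels of 7 of the 8 imprinted genes other than Peg10 that were called in 4 or more of the 12 comparisons with WT (Nap1l5 is not drawn), in normalised CPM on axes that start at 0, by genotype (WT grey, 200H orange, 200M blue), with young mice above and older mice below; points are libraries, lines means and bars SD. Igf2 runs from 9.85 to 12.1 CPM in young WT to 29.8 to 46.5 CPM in young 200M without overlap, while Mest is the gene with lower mutant means.

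Within the Peg3 cluster on chromosome 7 the genes differed. Peg3, a zinc finger gene at 213 and 174 CPM per kb in young and older WT pituitary, had log2 differences between -0.05 and 0.06 in the 4 comparisons and was not called. Usp29, a deubiquitinase gene transcribed away from Peg3, rose in young 200M and 200H and older 200M (log2 0.98, 0.82 and 0.44). Its young WT libraries were at 37.6 to 53.4 CPM and its young 200M libraries at 76.9 to 92.0 CPM, while in the older 200H pituitary its difference was log2 0.11 (edgeR adjusted p = 0.57). The older 200M call of Usp29 was lost without WT replicate 2 or 3 or 200M replicate 1 or 2 (edgeR adjusted p from 0.0527 to 0.153). Zim1, a zinc finger gene of this cluster expressed from the maternal copy, rose in young 200M and 200H (log2 0.47 and 0.73) and was at log2 0.38 and 0.01 in older 200M and 200H, not called.

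In the Dlk1-Dio3 cluster on chromosome 12, the maternal noncoding RNAs and the paternal protein-coding genes gave different values. Rian fell in young 200M and 200H (log2 -0.35 and -0.29), from 1020 to 1067 CPM in WT to 744 to 848 and 748 to 953 CPM. Meg3 fell in young 200M by log2 0.18 (edgeR adjusted p = 0.0197), a call lost without the unnumbered WT library or 200M replicate 3 or 4 (edgeR adjusted p from 0.0533 to 0.0726). Mirg fell in older 200M and 200H (log2 -0.31 and -0.41) and was at log2 -0.13 and -0.14 in the young, not called. The older 200M call of Mirg was lost without WT replicate 2 or any 200M library (edgeR adjusted p from 0.054 to 0.134). Rtl1, a gene derived from a retrotransposon like Peg10, rose in older 200M and 200H (log2 0.86 and 0.84) from 17.5 to 22.7 CPM in WT to 31.2 to 43.5 CPM in 200M and 33.4 to 39.0 CPM in 200H. It had no count in any young pituitary library. Its WT level was also 0.0 in young hypothalamus and ovary and in the older ovary, which was counted without strand but with the GENCODE annotation of the young libraries. An antisense transcript is known at Rtl1 and the older counting ignored strand, so its older counts may include antisense reads. The part of strand and of annotation in these values was not tested. Dlk1, a transmembrane protein of the Notch ligand type that is abundant in the pituitary, had log2 differences of 0.12 and 0.13 in young 200M and 200H and of -0.31 and -0.13 in the older mutants, none called.

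Mest, a paternally expressed gene for a protein of the alpha/beta hydrolase fold, fell in all 4 comparisons. In the young pituitary it was at 1229, 1699 and 1108 CPM in WT, at 692, 805, 878 and 715 CPM in 200H, and at 713, 712, 727 and 944 CPM in 200M. In the older pituitary it was at 358, 685, 659 and 328 CPM in WT, at 206, 224, 291 and 376 CPM in 200H, and at 344, 274 and 265 CPM in 200M. The young mutants lay below WT without overlap, whereas in the older pituitary the mutants overlapped the lower WT libraries. It fell by log2 0.78 in young 200M (SE 0.13, edgeR adjusted p = 0.00038) and by 0.79 in young 200H (SE 0.12, edgeR adjusted p = 0.0011). In the older mutants it fell by 0.78 and 0.89 in 200M and 200H (edgeR adjusted p = 0.0333 and 0.0373). The older 200M call was lost without WT replicate 2 or 3 or any 200M library (edgeR adjusted p from 0.0523 to 0.125), and the older 200H call without WT replicate 2 or 3 or 200H replicate 1, 2 or 3 (edgeR adjusted p from 0.0752 to 0.113). Mest overlaps Copg2 on the other strand. Reads of this overlap cannot be told apart in the older libraries, whose counts may miss or include them.

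The other genes were tested without a call in any of the 12 comparisons of a mutant with WT. Of these 15 genes, 12 were tested in the pituitary, namely H13, Commd1, Kcnq1ot1, Peg13, Sgce, Dlk1, Igf2r, Inpp5f, Trappc9, Slc22a18, Peg3 and Zrsr1, and their pituitary log2 differences ran from -0.31 (Dlk1) to 0.86 (Slc22a18). The remaining 3, Magel2, Mkrn3 and Peg12, were tested in hypothalamus or ovary. Phlda2 and Ascl2, both known from the placenta, were under the filter everywhere, with no library above 1.48 CPM.

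In the hypothalamus none of the listed genes was called by edgeR, and the background was at or near 0 as well. In the young hypothalamus 32 genes were tested against WT, with 0.02% of all genes called in 200M and 0.0202% in 200H, and at an unadjusted p under 0.05 there were 1 and 0 listed genes and DESeq2 called 0 in both. Between young 200M and 200H, 0 of 32 were called (0.0% of all genes, 1 listed gene at an unadjusted p under 0.05 and 0 by DESeq2). In the older hypothalamus 35 genes were tested, with 0.00622% of all genes called in 200M, 0.0% in 200H and 0.0% between 200M and 200H. There the unadjusted edgeR p was under 0.05 for 8, 3 and 8 listed genes. Over all genes it was under 0.05 for 2904 of 16067, 445 of 15910 and 3144 of 16156. DESeq2 called 7 listed genes in 200M, 0 in 200H and 3 between 200M and 200H. The percentages above are of edgeR calls. The share of all genes called by DESeq2 is not given, so its counts have no background here. Peg10 was abundant in this tissue, at 1193, 1402, 1361 and 1187 CPM in young WT and 1503, 1264, 1314 and 993 CPM in young 200M, which overlapped (log2 -0.02, 95% interval -0.19 to 0.15). In the older hypothalamus it was at 578, 563, 653 and 753 CPM in WT and at 498, 470 and 472 CPM in 200M. The 200M libraries were all below WT, and the difference did not pass the test (log2 -0.41, edgeR adjusted p = 0.112), with DESeq2 and the fit without WT replicate 1 among those that called it.

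In the young ovary 35 genes were tested. Peg10 was the single call in 200M, where 2.58% of all genes were called, and it fell there. It was at 670, 578, 729 and 716 CPM in WT, at 592, 705, 404 and 620 CPM in 200H, and at 428, 624, 387 and 422 CPM in 200M. The highest 200M library overlapped WT and the other 3 lay below it. Peg10 fell by log2 0.53 (SE 0.12, edgeR adjusted p = 0.0389), and the call was lost without WT replicate 1, 3 or 4 or 200M replicate 1, 3 or 4 (edgeR adjusted p from 0.0864 to 0.148). Of 5 luteal cell markers, Cyp11a1 and Parm1 fell in the same 200M libraries (log2 -0.69 and -0.38, edgeR adjusted p = 0.0185 and 0.0307). The sum of the 5 was 2869 to 4088 CPM in young WT, 1468 to 2777 CPM in 200H and 1728 to 3650 CPM in 200M, and the part of these markers in the fall of Peg10 was not tested. The young 200H ovary had 0 calls among 35 genes (0.0051% of all genes, 4 listed genes at an unadjusted p under 0.05 and 0 by DESeq2), with Peg10 at log2 -0.20 (edgeR adjusted p = 0.835). Young 200M against 200H had 0 calls as well (0.0% of all genes, 1 listed gene at an unadjusted p under 0.05 and 0 by DESeq2). In the older ovary Peg10 was at 80.8, 96.2, 249 and 158 CPM in WT and at 101, 75.0, 47.5 and 83.1 CPM in 200M, which overlapped (log2 -0.93, SE 0.36, edgeR adjusted p = 0.238).

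The older 200M ovary had 3 calls among 34 genes, all higher, where 2.71% of all genes were called. These were Cdkn1c, the cyclin-dependent kinase inhibitor; Dio3, the deiodinase that inactivates thyroid hormone; and Igf2. Cdkn1c was at 14.3, 15.4, 17.0 and 22.7 CPM in WT, at 18.4, 18.8, 13.4 and 24.1 CPM in 200H, and at 326, 103, 82.2 and 212 CPM in 200M. All 4 libraries of 200M were far above the other 8, and they varied widely among themselves. The rise was 10.4-fold (log2 3.38, SE 0.44, edgeR adjusted p = 0.00853). Dio3 was at 5.64, 3.82, 5.41 and 7.16 CPM in WT and at 17.7, 16.0, 21.1 and 15.9 CPM in 200M, and rose 3.21-fold (SE of log2 0.22, edgeR adjusted p = 0.00912). Igf2 was at 9.43, 11.5, 9.44 and 10.4 CPM in WT, at 14.8, 23.2, 15.6 and 16.9 CPM in 200H, and at 31.4, 20.5, 20.1 and 22.6 CPM in 200M. Its 200M libraries were above every WT library, and it rose 2.32-fold (SE of log2 0.18, edgeR adjusted p = 0.0151), a call lost without WT replicate 2 or 3 (edgeR adjusted p = 0.0513 and 0.065).

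In 200H the older ovary had 0 calls among 34 genes (0.0% of all genes; 3 listed genes at an unadjusted p under 0.05 and 1 by DESeq2), with Igf2 at log2 0.80 (edgeR adjusted p = 0.748). Between older 200M and 200H, 2 of 34 genes were called (1.61% of all genes), Cdkn1c at 9.49-fold and Dio3 at 2.32-fold higher in 200M (edgeR adjusted p = 0.0112 and 0.033), and both calls were lost without 200H replicate 2 (edgeR adjusted p = 0.0594 and 0.0993). The call of Cdkn1c was also lost without 200H replicate 1, and that of Dio3 without 200H replicate 3 or 4 or 200M replicate 1, 2 or 4 (edgeR adjusted p from 0.0507 to 0.112). In the young 200M ovary the values were log2 0.34 for Cdkn1c, 0.45 for Dio3 and 0.22 for Igf2 (edgeR adjusted p = 0.24, 0.316 and 0.317). Markers of luteal cells moved in the same libraries. Their summed level over 5 genes was 5787 to 19560 CPM in older WT ovaries, 8138 to 12130 CPM in 200H and 1681 to 5883 CPM in 200M, and 2 of the 5, Star and Ptgfr, fell in 200M. The summed level of 4 granulosa cell markers was 2385 to 3902 CPM in older WT and 1411 to 3734 CPM in older 200M, which overlapped. The part of the luteal share in the rises of Cdkn1c, Dio3 and Igf2 was not tested.

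Tests of the difference between effects compared 200M minus WT in 1 tissue with the same contrast in another, with all libraries treated as independent. In the young mice 16 of 33 genes differed between pituitary and hypothalamus, 13 with the higher value in the pituitary and 3 with the lower, where 10.5% of all genes differed. In the older mice 14 of 36 genes differed, 13 higher and 1 lower, against 17.5% of all genes. Peg10 differed by log2 1.71 (SE 0.14, edgeR adjusted p = 1.67e-09) in the young and by 2.30 (SE 0.21, edgeR adjusted p = 1.04e-06) in the older mice. Between pituitary and ovary, 15 of 37 genes differed in the young mice (10.1% of all genes) and 5 of 37 in the older mice (5.77%). For Peg10 these differences were log2 2.22 (edgeR adjusted p = 5.97e-08) and 2.84 (edgeR adjusted p = 0.00281). For Igf2 the pituitary effect exceeded that in the ovary in the young (log2 1.48, edgeR adjusted p = 4.05e-05), and in the older mice the difference did not pass the test (log2 0.49, edgeR adjusted p = 0.249). Against the hypothalamus, Igf2 differed in the young (log2 1.605, edgeR adjusted p = 0.00741) and did not pass the test in the older mice. Nnat, Ndn and Mest likewise passed it against the hypothalamus in the young and not in the older mice. Between young and older pituitary 0 of 34 genes differed by edgeR (0.0273% of all genes, 4 listed genes at an unadjusted p under 0.05 and 0 by DESeq2). Between young and older ovary 1 of 35 differed, Cdkn1c, where 0.197% of all genes did, with a larger effect in the older ovary by log2 3.01 (edgeR adjusted p = 0.0234), a call lost without young WT replicate 1 or 4, young 200M replicate 4 or older WT replicate 2 (edgeR adjusted p from 0.0536 to 0.0662).

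**Figure D4:**
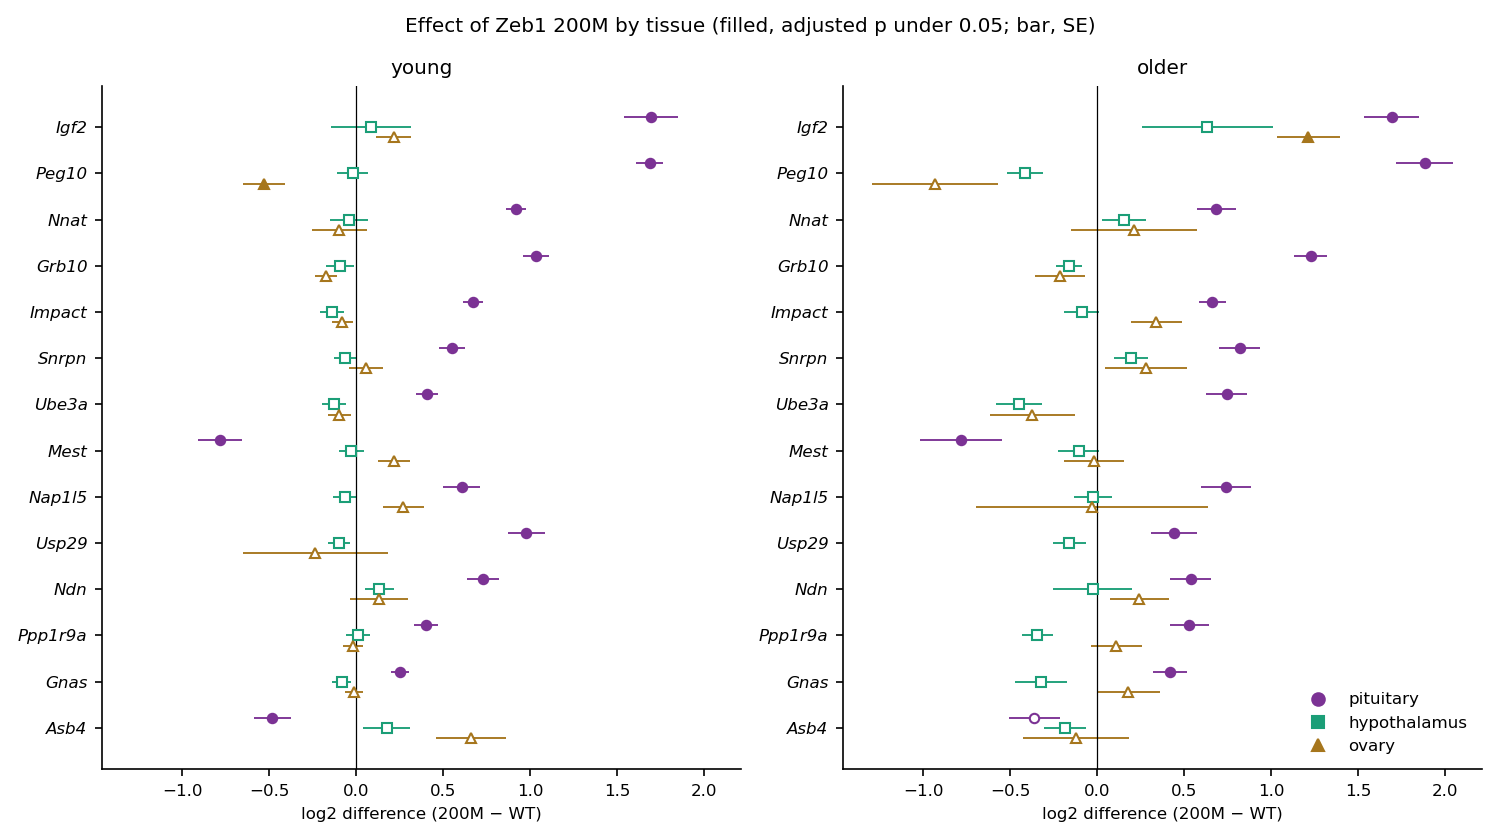
Log2 differences between 200M and WT (horizontal axis) in pituitary (circles), hypothalamus (squares) and ovary (triangles) for the 14 imprinted genes called in at least 3 pituitary comparisons, young mice on the left and older mice on the right; bars are SE and filled symbols have an adjusted p under 0.05. In the young mice the pituitary value of Peg10 is 1.69, beside -0.02 in hypothalamus and -0.53 in ovary, and no hypothalamus symbol is filled in either cohort.

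The listed genes were also read by their WT levels. Per length, each gene was placed in the tissue of its highest WT level. This put 16 genes in the hypothalamus, 13 in the pituitary and 11 in the ovary in the young mice, and 15, 13 and 12 in the older mice. The 16 include Rtl1, which was at 0.0 in all young WT tissues and so had no highest tissue. Genes under the filter, such as Phlda2 and Ascl2, were placed as well. The older ovary was counted with another program and annotation than the other older tissues. Gnas was placed in the pituitary in the young and in the ovary in the older mice, and Ube3a in the hypothalamus and then the ovary. Scaling was done within each tissue, and 8 hormone cell markers averaged 311400 CPM in older WT pituitary. Levels set beside each other across tissues, here and in the split below, are thus a rough guide. Peg10, Igf2, Grb10, Impact, Snrpn, Ndn and Nap1l5 had their highest WT level in the hypothalamus in both cohorts (Peg10 at 193 CPM per kb in young hypothalamus, beside 101 in ovary and 50.8 in pituitary). Nnat, Mest, Plagl1 and Peg3 had theirs in the pituitary (Mest at 341 CPM per kb in young pituitary, beside 72.4 in hypothalamus and 6.25 in ovary). In young 200M pituitary, 11 of the 14 tested genes that were higher in WT hypothalamus than in WT pituitary rose and 0 fell, beside 23% and 2.98% of 7152 such genes in all. Of the 19 others, 3 rose and 5 fell, beside 4.04% and 14.5% of all genes. In older 200M, 11 of 17 genes higher in hypothalamus rose and 0 fell (19.5% and 2.81% of all genes), and 3 rose and 2 fell of the 17 others (3.68% and 16.8%). In young 200H 11 of 14 rose (12.7% of all genes), and in older 200H 7 of 17 rose (11.8%). Nnat and H19 rose in 200M although both were lower in WT hypothalamus than in WT pituitary. The WT pituitary libraries enter both the grouping and the difference, so the split is a description and carries no test.

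**Figure D5:**
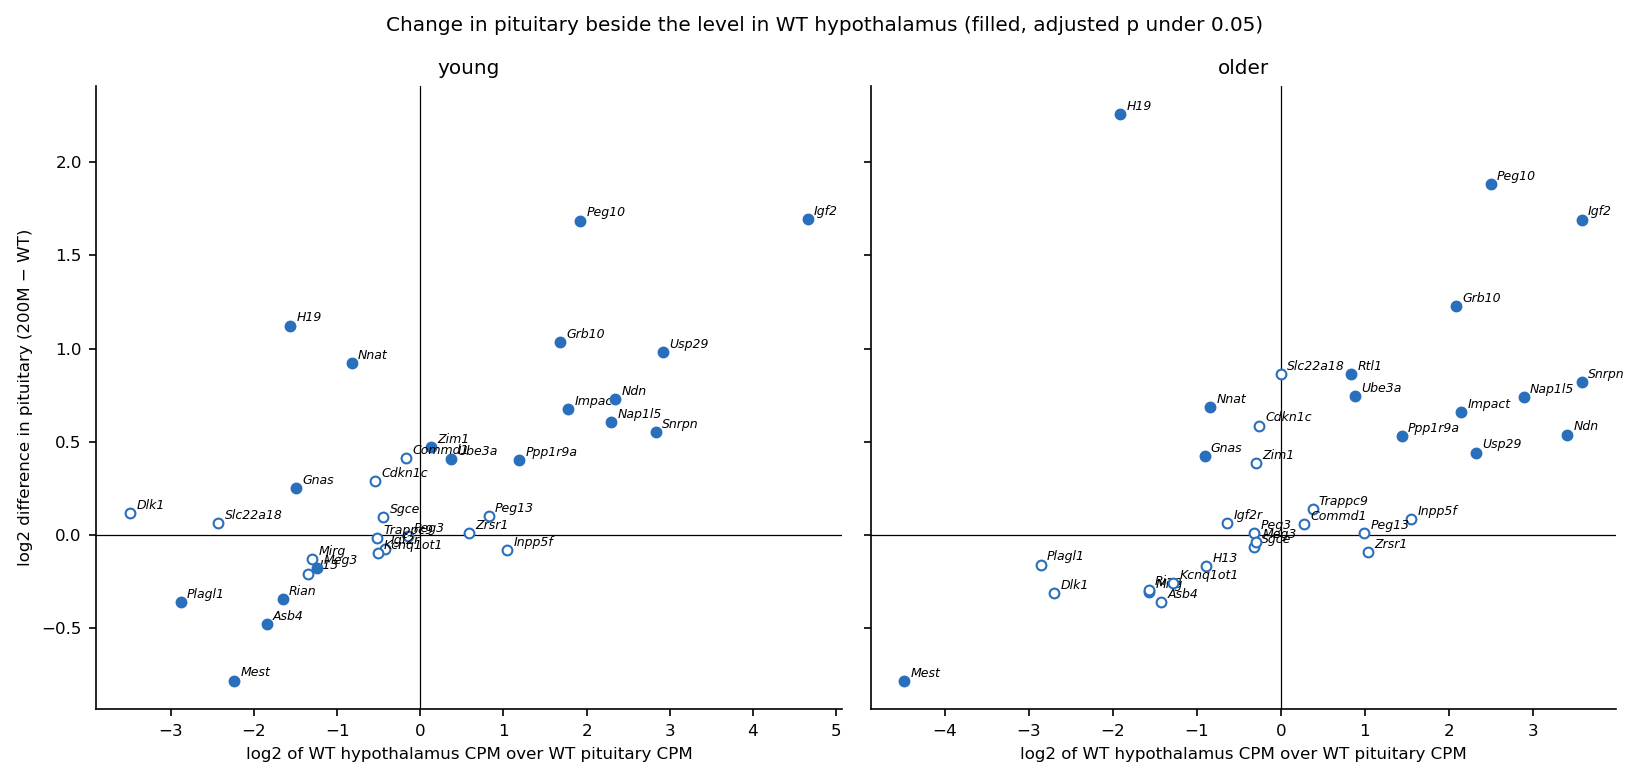
Log2 difference between 200M and WT pituitary (vertical axis) beside the log2 ratio of WT hypothalamus to WT pituitary level (horizontal axis) for each imprinted gene tested, young mice on the left and older mice on the right; each point is a gene and filled points have an adjusted p under 0.05. Genes to the right of 0 hold 11 of the 14 young rises, and Igf2 in the young lies at a ratio of 4.66 and a difference of 1.69.

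By parental copy, the young 200M pituitary had 6 rises and 3 falls among 16 tested maternally expressed genes and 8 rises and 2 falls among 17 paternally expressed ones, where 11.5% of all genes rose and 10.0% fell. The counts were 5 and 2, and 8 and 1, in young 200H (6.56% and 5.72% of all genes). In older 200M they were 5 and 1 among 16 maternal, and 9 and 1 among 18 paternal genes (11.7% and 9.77%). In older 200H they were 2 and 2, and 6 and 1 (7.09% and 5.14%). Rises and falls were thus present among genes of either parental copy.

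A further list of 53 neighbours of these clusters and other imprinted genes, also chosen with earlier results known, was counted in the same way. In the pituitary, 12 of 39 tested rose and 3 fell in young 200M (11.5% and 10.0% of all genes), and 10 and 3 of 37 in young 200H (6.56% and 5.72%). In older 200M 12 rose and 0 fell of 34 (11.7% and 9.77%), and in older 200H 9 and 0 of 33 (7.09% and 5.14%). In the hypothalamus edgeR called 0 in each comparison of a mutant with WT, with 3 and 1 at an unadjusted p under 0.05 in young 200M and 200H and 10 and 1 in the older mutants. The genes called in 200M pituitary of both cohorts included Gabrg3, a GABA receptor subunit gene (log2 1.62 young and 2.57 older), Th, which encodes tyrosine hydroxylase (log2 1.5 and 2.61), Kcnk9, a potassium channel gene of the Trappc9-Peg13 cluster (log2 0.91 and 1.40), and Snhg14, the long antisense transcript of the Ube3a locus (log2 0.97 and 1.10). Begain, next to Dlk1, rose by log2 0.74 and 1.10, and Blcap, which hosts Nnat in an intron, by log2 0.70 and 0.48. Sfmbt2, Phactr2 and Atp10a completed this group at log2 0.50, 0.52 and 0.59 in young 200M, and at 1.32, 0.60 and 0.50 in older 200M.

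Markers of other cell types were read in the same pituitary libraries. Of 5 neuronal markers 4 were tested, and Snap25 and Syt1 rose in 200M of both cohorts, while in 200H neither was called. Rbfox3 rose in older 200M and 200H (log2 1.35 and 0.84, edgeR adjusted p = 0.00158 and 0.0373), and Slc17a6 fell in young 200M and 200H (log2 -0.67 and -1.12, edgeR adjusted p = 0.0319 and 0.0128). Their summed level was 869 to 925 CPM in young WT, 855 to 989 in 200H and 956 to 1080 in 200M, and 563 to 649, 651 to 757 and 828.5 to 891 CPM in the older pituitary. Of 6 hypothalamic peptide genes, 3 were tested in older 200M and 2 in each other comparison. Gal rose in all 4 comparisons and Oxt in older 200M. Oxt was not called in young 200M, young 200H or older 200H (log2 -0.189, 0.465 and 0.405). The summed level of the 6 genes was 14.7 to 39.99 CPM in young WT, 39.8 to 148 in 200H and 55.7 to 97.5 in 200M. It was 81.7 to 248, 263 to 731 and 324 to 420 CPM in the older pituitary. Gal made up most of this sum. Its means were 24.0, 80.3 and 74.9 CPM in young WT, 200H and 200M, beside summed means of 26.5, 82.8 and 76.9. Older Gal means were 155.2, 533.9 and 356.7 CPM, beside 161.6, 541.3 and 369.2. Avp averaged 0.62, 0.53 and 0.54 CPM in the same young groups, and Agrp 0.35, 0.12 and 0.13. Older means were 1.23, 0.93 and 1.26 CPM for Avp, and 1.09, 1.07 and 1.85 CPM for Agrp. Pmch and Hcrt, which mark hypothalamic neurons, stood at or near 0 in the pituitary libraries.

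Intermediate lobe markers were called in older 200M only, where 3 of 3 rose (553 to 1084 CPM summed, against 396 to 669 in WT and 190 to 562 in 200H). In the young pituitary they spanned 467 to 611 CPM in WT, 564 to 599 in 200H and 467 to 687 in 200M. Among 3 pituicyte markers 2, 1, 2 and 1 rose in young 200M, young 200H, older 200M and older 200H. Their sum was 188 to 197 CPM in young WT, 226 to 255 in 200H and 232 to 276 in 200M, and 94.8 to 118, 62.1 to 130 and 134 to 168 CPM in the older pituitary. The summed level of 8 hormone cell markers was 163900 to 187100 CPM in young WT against 70000 to 98270 in 200H and 68000 to 87810 in 200M. Prl carried this difference, since the other 7 summed to 28680 to 35030 CPM in young WT, 30290 to 41410 in 200H and 26500 to 38600 in 200M, which overlapped. Of those 7, Cga fell in young 200M, young 200H and older 200M, Pou1f1 fell in young 200M, and Pomc rose in older 200M.

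Of 5 choroid plexus markers, 4 of them tested, Aqp1 and Kl rose in young 200M (log2 1.18 and 0.50) and young 200H (log2 0.88 and 0.44), and Aqp1 in older 200M (log2 1.07). Their sum was 76.6 to 86.0 CPM in young WT, 93.2 to 136.6 in 200H and 89.8 to 141 in 200M, and 65.0 to 95.2, 96.8 to 112 and 103 to 113 CPM in the older pituitary. Of 7 fibroblast and meninges markers, 6 of them tested, Col1a2 fell in all 4 comparisons (log2 -1.68, -1.55, -1.24 and -1.25 in young 200M, young 200H, older 200M and older 200H), while Dcn rose in all but older 200H (log2 0.64, 0.61 and 0.91). Their sum was 581 to 695 CPM in young WT, 329 to 402 in 200H and 329 to 463 in 200M, and 670 to 1003, 381 to 487 and 446 to 566 CPM in the older pituitary. The part of these markers in the changes of the imprinted genes was not tested.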

How the data were processed

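RNA-seq count tables of 69 libraries were used. Per the labels and the study's methods, the authors aligned reads to mm10 with STAR 2.7.1a and counted them per gene with HTSeq 0.9.1 and an Ensembl annotation without strand (older pituitary and hypothalamus), or with featureCounts and the GENCODE basic annotation, without strand in the older ovary and by strand in all young libraries. The deposited values used were these raw counts, which carry no normalisation. A further 141 per-library columns of normalised values in the same tables, and the authors' own fold changes and p-values from DESeq2, were not used. Each count column that stood in more than 1 table was identical in both.

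Counts were analysed in R 4.3.3 with edgeR 4.0.16 (TMM, filterByExpr, quasi-likelihood F test, Benjamini-Hochberg over all genes tested, threshold 0.05), with each pair of genotypes fitted by itself within a tissue and cohort as in the study, and with interaction terms for differences of effects. The SE is the log2 difference divided by the square root of F. Alternatives were DESeq2 1.42.0, its size factors, no filter on low counts, all 3 genotypes in one fit, a replicate block and each library left out. On simulated counts the fit recovered 99% of the genes changed by log2 1 for young pituitary 200M against WT and 40% for older ovary 200M against WT. The changed genes were a small part of the 18262 and 18037 genes tested. They were drawn only from genes with higher mean counts, so these shares do not cover sparse genes such as H19. Library totals are given with the groups, and their size limits precision most for genes under a few CPM.

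All 40 genes are accounted for. Peg10, Sgce and each gene called against WT are named, and 8 of the 9 called in 4 or more of the 12 comparisons with WT are given library by library in the pituitary, with ties ordered by the p in young 200M, which left out Nap1l5. Members, marker lists and the neighbour list were chosen with earlier results of these data known. Gene positions and 3′ UTRs are from GENCODE on GRCm38. Libraries with the same number were not paired: in no comparison of genotypes within a tissue did the deviations of every same-numbered pair correlate above 0.1. No such check was made between tissues. The labels do not say whether libraries of different tissues came from the same animals, and the tests between tissues treated all libraries as independent.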

Additional observations from a re-analysis of the deposited data

Results flagged for a closer look

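In 4 of 65 groups of 4 libraries, 1 library stood apart from the other 3 by Dixon's test, which chance does in about 1 in 20 groups. Peg10 was at 981.1 CPM in young pituitary 200M replicate 2, below the other 3, which were above 1100 CPM. Mest was at 943.6 CPM in young pituitary 200M replicate 4, above the others. In the young ovary Peg10 was at 623.7 CPM in 200M replicate 2, the 1 library of its group that overlapped WT, and Igf2 was at 26.33 CPM in 200H replicate 1, below the others.

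Differences of the 200M effect between tissues or cohorts passed the interaction test for the following genes (log2, first named minus second, edgeR adjusted p from 1.67e-09 to 0.0427). Between young pituitary and hypothalamus the value was 1.708 for Peg10, 1.605 for Igf2, 1.127 for Grb10, 1.076 for Usp29, 0.963 for Nnat, 0.811 for Impact, 0.671 for Nap1l5, 0.612 for Snrpn, 0.598 for Ndn, 0.541 for Zim1, 0.536 for Ube3a, 0.390 for Ppp1r9a and 0.336 for Gnas. It was -0.755 for Mest, -0.652 for Asb4 and -0.374 for Rian. Between older pituitary and hypothalamus it was 2.295 for Peg10, 1.390 for Grb10, 1.198 for Ube3a, 1.056 for Rtl1, 0.875 for Ppp1r9a, 0.768 for Nap1l5, 0.751 for Impact, 0.746 for Gnas, 0.654 for Zim1, 0.624 for Snrpn, 0.601 for Usp29, 0.415 for Igf2r, 0.383 for Peg3 and -0.490 for Mirg. Neither Igf2r nor Peg3 was called in the older pituitary or hypothalamus alone.

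Between young pituitary and ovary it was 2.221 for Peg10, 1.484 for Igf2, 1.239 for Usp29, 1.211 for Grb10, 1.019 for Nnat, 0.873 for Zim1, 0.757 for Impact, 0.605 for Ndn, 0.507 for Ube3a, 0.497 for Snrpn, 0.421 for Ppp1r9a and 0.271 for Gnas, and -1.123 for Asb4, -0.995 for Mest and -0.506 for Plagl1. Between older pituitary and ovary it was 2.837 for Peg10, 1.464 for Grb10, 1.137 for Ube3a and -2.774 for Cdkn1c. The fitted value of 5.309 for Peg12 in that comparison rests on a pituitary WT group with no counts and on 200M pituitary libraries under 0.43 CPM, so its size is no measure of a fold. Between young and older ovary Cdkn1c gave -3.013.

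Some of these calls were lost when 1 library was left out. They were Zim1 in young pituitary against hypothalamus, Igf2r, Peg3, Usp29 and Zim1 in the older (edgeR adjusted p up to 0.0869), Gnas, Ndn and Usp29 in young pituitary against ovary (up to 0.0983), Ube3a (any pituitary library and 5 ovary libraries), Cdkn1c and Peg12 in the older (up to 0.112), and Cdkn1c between the ovaries (up to 0.0662).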

How the results depend on the processing

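No gene or count reversed its direction under any alternative run. Counts of called imprinted genes moved by over 1.5 times in these cases, and the cause was not tested beyond the construction of each alternative. The share of all genes called in each alternative run is not given, so these counts have no background beside them. With DESeq2 the count was 2 in place of 1 for young pituitary 200M against 200H, 7 and 3 in place of 0 for older hypothalamus 200M against WT and against 200H, 1 in place of 0 for older ovary 200H against WT, and 3 in place of 1 for young against older ovary. Without the filter on low counts it was 2 for young pituitary 200M against 200H, 2 for young ovary 200M against WT, 4 for older pituitary 200M against 200H, 8, 1 and 5 for older hypothalamus 200M against WT, 200H against WT and 200M against 200H, and 1 in place of 0 for young against older pituitary. With all 3 genotypes in one fit it was 0 for young ovary 200M against WT.

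With a replicate block the count was 0 in place of 1 for young pituitary 200M against 200H and for young ovary 200M against WT, and 1 in place of 2 for older ovary 200M against 200H. Same-numbered libraries shared a number only, with correlations of their deviations between -0.648 and 0.45, and in no comparison did every library correlate best with its own number.

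With 1 library left out, counts ran from 10 to 16 for young pituitary 200H against WT (lowest without WT replicate 1 or the unnumbered WT library), from 0 to 1 for young pituitary 200M against 200H, from 0 to 3 for older pituitary 200M against 200H (highest without 200H replicate 2), from 0 to 2 for young ovary 200M against WT (highest without 200M replicate 2), from 0 to 4 for older hypothalamus 200M against WT (highest without WT replicate 1), from 0 to 2 for older ovary 200M against 200H (lowest without 200H replicate 2), from 3 to 5 for older pituitary against ovary (lowest without pituitary 200M replicate 2 or 3) and from 0 to 2 for young against older ovary (lowest without young WT replicate 1 or 4, young 200M replicate 4 or older WT replicate 2, highest without older 200M replicate 2 or 3). They stayed at 17 to 19 for young and 12 to 19 for older pituitary 200M against WT, and at 8 to 13 for older 200H. For single genes over all these fits, 1611 results kept their side of the threshold, 142 lost a call and 40 gained one.

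Depth limits genes such as H19, Peg12 and Slc22a18, which lie near or under 1 CPM in WT pituitary. Calls that single libraries or settings decide include, among named genes, H19 and Meg3 in young 200M, Mest in the older pituitary and Peg10 in the young ovary. For Peg10 in young ovary 200M the adjusted p was 0.106 with DESeq2, 0.147 with all 3 genotypes and 0.117 with the block, and for H19 in young pituitary 200M it was 0.0654, 0.0533 and 0.198. With DESeq2 Mest had 0.0951 and 0.0659 in the older 200M and 200H pituitary. Meg3 gave 0.176 without the filter.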
